A study of Mus musculus with 12 samples.

Results

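Oligodendrocyte precursor cells (OPCs) are the dividing progenitors from which the myelinating oligodendrocytes of the adult brain arise. They carry the PDGF receptor alpha (Pdgfra) and the chondroitin sulfate proteoglycans NG2 (Cspg4) and versican (Vcan), receive synapses from neurons through glutamate and GABA receptors, and pass through a short-lived committed stage before they make myelin. In the hippocampus they are a small, evenly spread population. Nuclei of these cells were examined here in single-nucleus RNA-seq data from the left hippocampus of female mice of a mouse model of Alzheimer's disease.

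OPC nuclei were chosen by raw counts of unique molecular identifiers (UMIs, each marking 1 captured RNA molecule). A nucleus with 500 to 10000 detected genes was taken as an OPC when it held at least 1 UMI of Pdgfra and at least 2 of Vcan, none of Enpp6, Bmp4 or Mog, which mark later stages of the lineage, and at most 1 UMI over the neuronal transmitter genes Slc17a7, Slc17a6, Gad1 and Gad2. This gave 3672 OPCs among 184957 nuclei of that size (1.99%), and among 185643 nuclei in the files. Because these 9 genes chose the nuclei, their levels are given as a description and were left out of every test.

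The 12 libraries formed 4 groups of 3, namely WT and 3xTg-AD mice at 6 and at 12 months of age. The 3xTg-AD mice were on a mixed B6;129 background and carried, among their altered genes, human APP with the Swedish mutation and human tau with P301L as transgenes, driven in neurons by a Thy1 cassette. The WT mice were littermates. All nuclei had been sorted by flow cytometry before droplet capture with a 3′ kit. By the study's methods the nuclei came from 12 mice, so that the libraries of a group are separate animals.

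A library held 196 to 446 OPCs with 793934 to 1870399 UMIs in their sum, and the median OPC held 3351 to 4711 UMIs. Any 2 libraries shared 29 to 105 barcodes among all retained nuclei and none among OPCs. No doublet caller was run. The limits on Mog and transmitter genes remove some mixed nuclei, and an alternative chosen after seeing the data kept the 3525 OPCs with fewer than 2 UMIs over 10 markers of astrocytes, microglia, vascular cells and mature oligodendrocytes, none of them neuronal.

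The labelled cell type held up against markers that the rule did not use. Lhfpl3, a tetraspan protein gene, stood at 4673 to 7058 CPM (UMIs of the gene per 1000000 UMIs of the OPCs of a library) over the 12 libraries, against a mean of 119.8 in mature oligodendrocytes and 183 in astrocytes. Both of those classes were selected on their own markers and on holding no Pdgfra UMI, which also leaves out nuclei mixed with OPCs. Cspg4 stood at 259 to 398 CPM against 3.77 and 2.57, and 67.1% of OPCs held at least 1 UMI of it. Neu4, a sialidase gene, stood at 202 to 332 CPM against 0.838 and 0.405. Committed precursors and newly formed oligodendrocytes held means of 459 CPM of Lhfpl3, 11.9 of Cspg4 and 91.2 of Neu4. Opcml, a cell adhesion gene given as a marker, was less selective, at 4362 to 5602 CPM in OPCs against 4181 in committed precursors and newly formed oligodendrocytes. The lineage regulators Sox10 and Olig1 were shared with mature oligodendrocytes, with Sox10 at a mean of 261 CPM in OPCs and 190.2 in mature oligodendrocytes. Sox6 and Ptprz1 were shared with astrocytes, which held 1252 CPM of Sox6 against 2061 in OPCs.

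**Figure D1:**
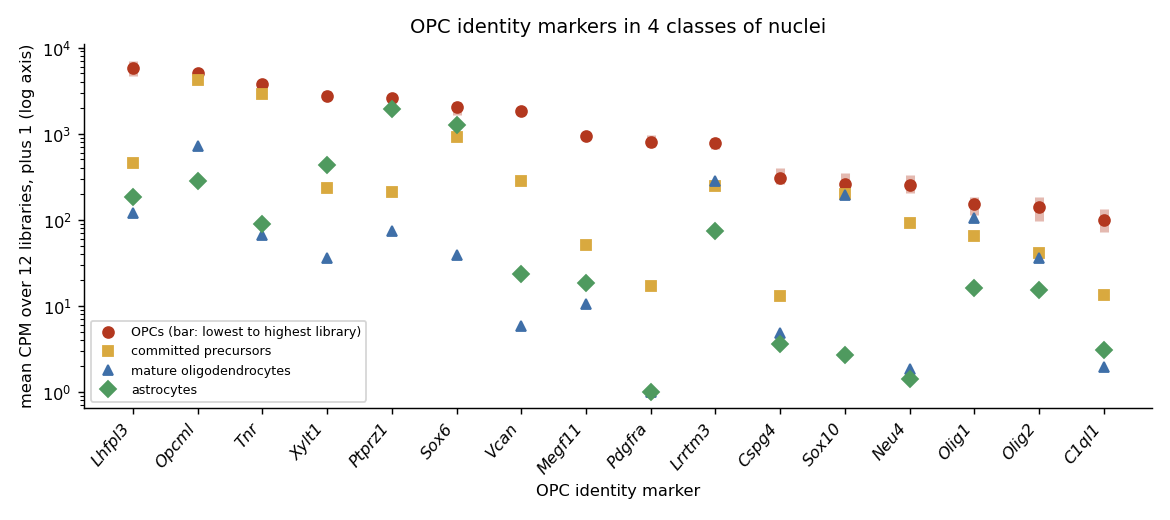
Mean CPM over the 12 libraries, plus 1, on a log axis, for 16 OPC identity markers in OPCs (red, with a bar from the lowest to the highest library), committed precursors and newly formed oligodendrocytes, mature oligodendrocytes and astrocytes. OPCs hold the highest level of each marker, and the gap is narrowest for Opcml and Tnr; Pdgfra and Vcan chose the OPCs.

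Genes outside the marker lists set OPC nuclei apart by a similar margin. Genes of at least 100 mean CPM in OPCs were ranked against the higher of mature oligodendrocytes and astrocytes and against all nuclei. Those with the largest ratio to both included Susd5, Emid1, Itga9 (integrin alpha 9), Calcrl (the receptor shared by CGRP and adrenomedullin), Shc4, Vxn, Galnt3 and Sema3d. Committed precursors entered the ranking only as part of all nuclei, and held 183 CPM of Sema3d against 498 in OPCs. Emid1 stood at 302 CPM in OPCs, 5.51 in committed precursors and 1.14 in mature oligodendrocytes. Itga9 stood at 715, 58.4 and 4.41 CPM in the same order, and Calcrl at 303, 39.9 and 2.89. Kcnh8, a potassium channel gene, fell from 461 CPM in OPCs to 10.4 in committed precursors, while Ust, a sulfotransferase gene, stood at 431 in OPCs and 1234 in committed precursors. These values describe the selected nuclei and were not tested.

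Nuclei next to the limits of the rule showed where it cuts. The 388 OPCs with exactly 2 Vcan UMIs held 5025 CPM of Lhfpl3 and 2904 of Tnr, and the 362 nuclei left out with 1 Vcan UMI held 4447 and 2625. The 1525 nuclei with Pdgfra and no Vcan held 580.2 CPM of Lhfpl3, and the 1418 with Vcan and no Pdgfra held 1521. The 156 nuclei left out for Mog held 1075 CPM of Mbp, the myelin basic protein gene, against 41.7 in OPCs. The 262 nuclei with exactly 2 transmitter UMIs held 468.4 CPM of the neuronal gene Snap25 against 289.9 in OPCs.

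The first question was whether the number of OPCs differed with genotype or age. OPCs made up 1.89, 1.56 and 1.83% of the nuclei in the 3 6-month WT libraries, 1.75, 2.13 and 2.13% in 3xTg-AD of that age, 2.06, 1.48 and 2.78% in 12-month WT and 1.93, 2.02 and 2.25% in 12-month 3xTg-AD. The groups overlapped, and the 12-month WT libraries held both the lowest and the highest share of the 12. The mean share was 2.04 ± 0.177% (SD, n = 6) in 3xTg-AD and 1.94 ± 0.467% (SD, n = 6) in WT, with a 2-sided exact permutation p = 0.673 and an adjusted p = 0.914 over 16 share comparisons. Between 12 and 6 months the difference was 0.206 percentage points (exact permutation p = 0.333). Without 12-month WT replicate 8 the genotype difference was 0.0094 percentage points and the age difference 0.327, and without 12-month WT replicate 12 they were 0.270 and 0.0665. Per 100 mature oligodendrocytes there were 19.03 ± 5.25 OPCs (SD, n = 6) at 12 months and 21.4 ± 3.25 (SD, n = 6) at 6 months (exact permutation p = 0.368). Within 1 age, the exact permutation test of 3 libraries against 3 cannot go below p = 0.1. None of the 16 share comparisons passed an adjusted p of 0.05.

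Gpr17, a receptor gene that rises as precursors start to differentiate, stood at 94.4 to 147 CPM in OPCs. Committed precursors and newly formed oligodendrocytes held a mean of 138 CPM, within that range. After thinning each nucleus to 2000 UMIs, 14.98 to 26.7% of the OPCs of a library held a Gpr17 UMI, against 0 to 0.671% of astrocytes, and the unthinned share was 27.6 to 47.2%. Of the 3672 OPCs, 3390 held enough UMIs to be thinned. The thinned share was 20.5 ± 4.56% (SD, n = 6) in 3xTg-AD and 21.97 ± 3.69% (SD, n = 6) in WT (exact permutation p = 0.537). The order of the groups was not the same at every threshold.

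A small set of OPC nuclei held transcripts of dividing cells. The share with at least 3 UMIs over a 34-gene proliferation list, 3.93 to 11.2% after thinning, lay below the 30.2 to 43.1% of mature oligodendrocytes, which hold 685 CPM of the list member Anln, so no reading is made of it. Over 20 genes of that list that act in mitosis or DNA replication, chosen after the values were seen and so given without a test, 54 OPCs held 3 or more raw UMIs (1.47%), against 5 of 18901 mature oligodendrocytes and 1 of 5629 astrocytes. Among committed precursors and newly formed oligodendrocytes, 3 of 854 held as many (0.351%). Those 54 nuclei held 80.6% of all UMIs of the 20 genes in OPCs. Of them, 32 held Top2a (topoisomerase 2 alpha) and 27 held Mki67, the gene of the division marker Ki-67. Gpr17 was present in 25.9% of them and in 35.9% of the OPCs with no UMI of the 20 genes. By library there were 3, 6 and 5 such nuclei in 6-month WT, 5, 6 and 3 in 3xTg-AD of that age, 4, 1 and 1 in 12-month WT and 2, 5 and 13 in 12-month 3xTg-AD. At 2000 UMIs per nucleus the counts at 6 months were 2, 3 and 3 in WT and 3, 4 and 3 in 3xTg-AD, and those at 12 months were 4, 1 and 0 in WT and 2, 5 and 5 in 3xTg-AD. As raw shares of OPCs the genotypes overlapped at each age, whereas all 12-month WT libraries, at 0.316 to 1.08%, lay below all 6-month WT libraries, at 1.31 to 2.400%. At 2000 UMIs per nucleus these WT groups overlapped, with 4 of 333 OPCs in 12-month replicate 4 and 2 of 226 in 6-month replicate 3. The 13 nuclei of 12-month 3xTg-AD replicate 10 became 5.

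**Figure D2:**
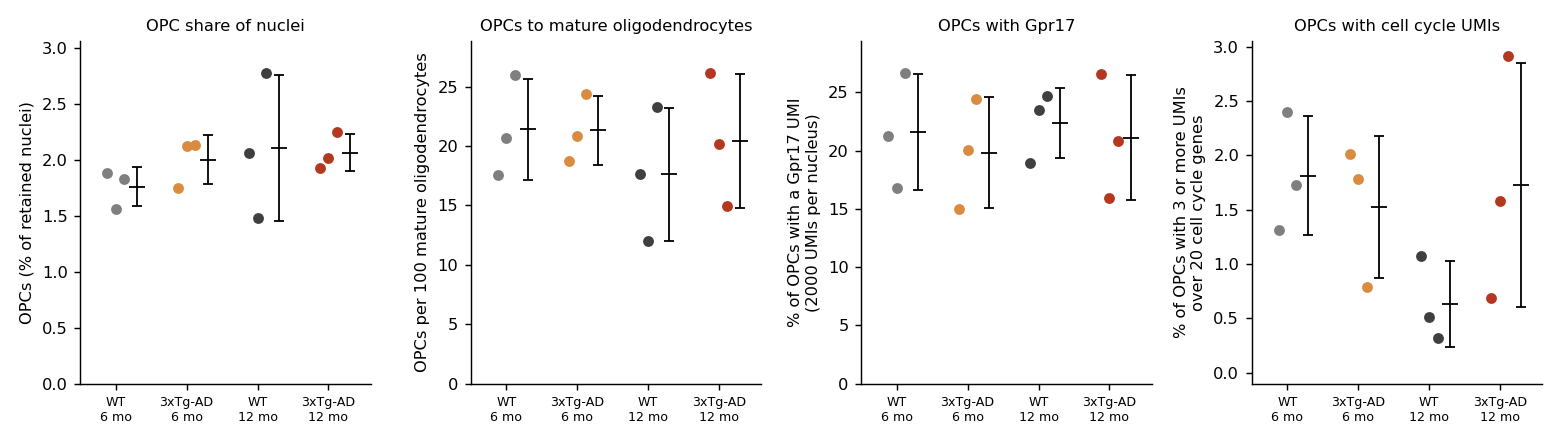
Each point is 1 library and each bar the mean with its SD of 3 libraries, for OPCs as a percentage of nuclei, OPCs per 100 mature oligodendrocytes, the percentage of OPCs with a Gpr17 UMI at 2000 UMIs per nucleus, and the percentage with 3 or more UMIs over 20 cell cycle genes. The groups overlap in the first 3 panels; in the fourth the 12-month WT libraries sit between 0.316 and 1.08%, overlapping the lowest 12-month 3xTg-AD library at 0.687% and the lowest 6-month 3xTg-AD library at 0.787%, and below the 6-month WT libraries at 1.31 to 2.400%, with raw UMIs; the WT groups overlapped at 2000 UMIs per nucleus.

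The main comparison asked which genes differed in OPCs between 3xTg-AD and WT mice. The counts of each library's OPCs were summed and tested with edgeR's quasi-likelihood test, a gene was called where its log2 fold change exceeded 0.2 in size and its Benjamini-Hochberg adjusted p lay under 0.05, and every adjusted p of a gene below is of that kind. At 6 months 51 of 9972 tested genes were called, or 0.511%, with 21 higher and 30 lower in 3xTg-AD. At 12 months 45 of 10562 were called, or 0.426%, with 15 higher and 30 lower. The 2 ages shared no library. In common they had 11 called genes, 21.6% of the 6-month and 24.4% of the 12-month genes, and each of the 11 had the same direction at both ages. Over both ages together, in a fit of all 12 libraries, 97 of 10925 genes were called, or 0.888%, with 35 higher and 62 lower. Without 6-month 3xTg-AD replicate 5 that count was 61. That fit holds the same libraries and is no separate evidence.

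**Figure D3:**
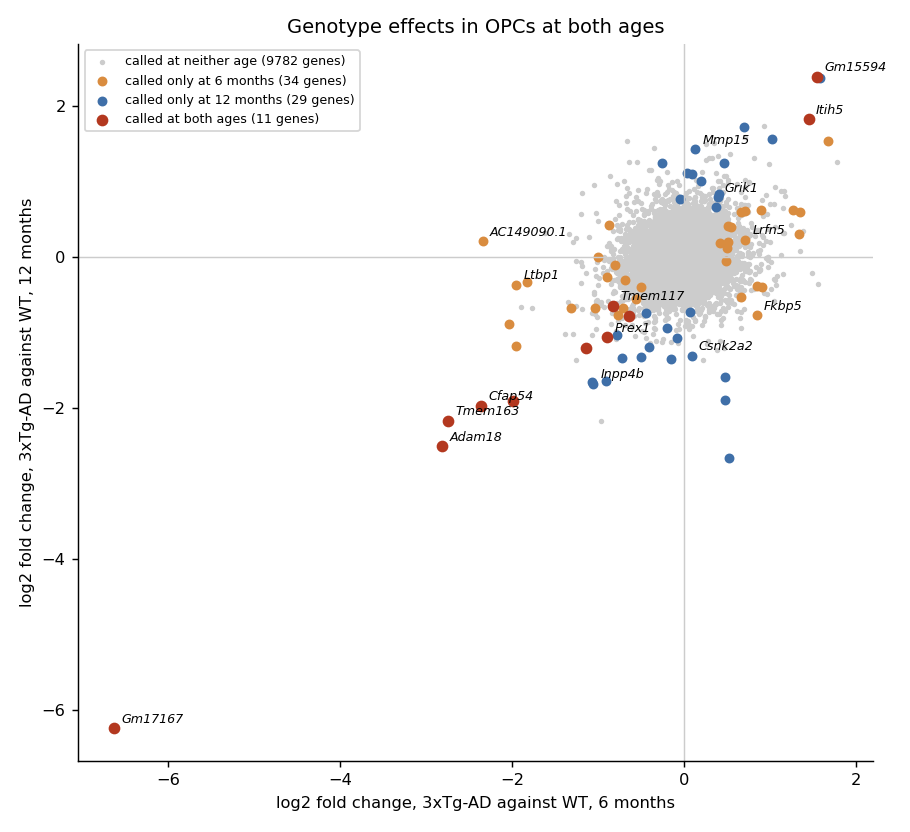
Each point is 1 of 9856 genes tested in OPCs at both ages, with the log2 fold change of 3xTg-AD against WT at 6 months on the x axis and at 12 months on the y axis. The 11 genes called at both ages lie in the lower left, among them Tmem163, Adam18 and Cfap54, or in the upper right, where Gm15594 and Itih5 lie.

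Tmem163, which encodes a zinc transporter mutated in a human disorder of myelin, was lower in 3xTg-AD OPCs at both ages. In 6-month WT OPCs it stood at 306, 279 and 296 CPM and in 6-month 3xTg-AD OPCs at 39.5, 54.1 and 35.1. At 12 months it stood at 129, 283 and 184 CPM in WT and 48.5, 29.7 and 48.7 in 3xTg-AD. No 3xTg-AD library reached the lowest WT library at either age. Genes were named partly for such lack of overlap, so it adds no support to their calls, here or below. Over all tested genes, the genotypes did not overlap for 1315 of 9972 at 6 months and 1185 of 10562 at 12 months. The log2 fold change of Tmem163 was -2.74 ± 0.14 (SE) at 6 months (edgeR adjusted p = 1.84e-11) and -2.17 ± 0.22 (SE) at 12 months (edgeR adjusted p = 2.04e-05). Committed precursors held 747 CPM on average in 6-month WT and 229.6 in 6-month 3xTg-AD, and mature oligodendrocytes 113 and 29.2. In astrocytes the means were 24.5 and 18.1 CPM.

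Prex1, which encodes an exchange factor that activates Rac, and Tmem117, which encodes a membrane protein, were also lower at both ages. Prex1 stood at 414, 407 and 366 CPM in 6-month WT and 220.4, 202 and 203 in 6-month 3xTg-AD, and at 313, 501 and 499 and 184, 223 and 208 at 12 months. The groups did not overlap at either age, and the log2 fold change was -0.89 ± 0.10 (SE) (edgeR adjusted p = 2.13e-05) and -1.06 ± 0.15 (SE) (edgeR adjusted p = 6.94e-04). Tmem117 stood at 456, 483 and 444 CPM against 246, 259 and 255 at 6 months and 390.2, 385 and 423 against 254, 220.4 and 284 at 12 months, again with no overlap. Both genes were also lower on average in 3xTg-AD astrocytes, with Prex1 at 268 CPM in 6-month WT and 123 in 6-month 3xTg-AD. Phf20, Bet1, Adam18, Cfap54, Zfp951 and Gm17167 completed the lower genes shared by both ages. Adam18 stood at 35.1, 39.4 and 45.05 CPM in 6-month WT and 0.989, 6.101 and 7.72 in 6-month 3xTg-AD. Gm17167 stood at 13.9 to 45.3 CPM over the 6 WT libraries and had 0 or 1 UMI in each 3xTg-AD library.

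Gm15594 and Itih5, a gene of hyaluronan-binding heavy chains, were the genes higher in 3xTg-AD OPCs at both ages. Gm15594 stood at 13.4, 41.5 and 22.5 CPM in 6-month WT and 54.4, 86.9 and 70.1 in 6-month 3xTg-AD, and at 15.6, 11.3 and 15.2 and 74.96, 71.7 and 80.2 at 12 months. Itih5 stood at 24.8, 12.6 and 19.4 and 74.1, 80.1 and 58.3 CPM at 12 months, while at 6 months the lowest 3xTg-AD library, at 24.7, lay below the highest WT library at 27.9. There were 2 transcripts, named after their values were seen, that were read in 1 genotype and not in the other. Gm20110 had no UMI in the 6 WT libraries, where 3 UMIs would have made 2.08 to 3.78 CPM, and 4.41 to 17.5 CPM in 3xTg-AD. Gm21860, annotated on the Y chromosome although the mice were female by the study's methods, had no UMI in the 6 3xTg-AD libraries and 5.04 to 61.2 CPM in WT. Its level, like that of AC149090.1 on an unplaced scaffold, is uncertain, since reads of near-identical copies could not be told apart here.

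Among genes higher at 6 months, Lrfn5, a synaptic adhesion gene, had the smallest p. It stood at 485, 557 and 596 CPM in WT and 840.2, 885 and 882 in 3xTg-AD, a log2 fold change of 0.71 ± 0.089 (SE) (edgeR adjusted p = 6.90e-05). At 12 months the levels were 807, 812 and 671 and 906, 909 and 851, without overlap and not called (edgeR adjusted p = 0.848). At that age 1185 of 10562 tested genes had no overlap between the genotypes. Mmp16, a membrane-bound matrix metalloproteinase gene, stood at 1548, 1422 and 1339.8 CPM in 6-month WT and 2218, 1961 and 1809 in 6-month 3xTg-AD. Kcnq5, a potassium channel gene, stood at 449, 423 and 324 and 656, 757 and 500.3 CPM. Dgki, Prkg1 and Syt1, a synaptic vesicle gene, rose too, with log2 fold changes of 0.50, 0.42 and 0.51. The summed level of 8 excitatory neuron markers, which include Syt1, moved with this group. It was 439.7 to 583 CPM in 6-month WT and 587 to 696 in 6-month 3xTg-AD, all 8 were detected, and 1 of the 3 tested was called. Its part in the results was not tested. Over the 3525 OPCs with fewer than 2 UMIs of the other glial and vascular markers, the log2 fold change of Syt1 was 0.32 against 0.51 over all OPCs, and its edgeR adjusted p was 0.323.

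Genes lower at 6 months included Kcnip3, the gene of a calcium sensor that binds potassium channels, Ltbp1, which holds TGF-beta in the matrix, Atp13a4, Caskin1 and Car10. Ltbp1 stood at 35.1, 33.2 and 37.8 CPM in WT and 13.8, 8.39 and 5.94 in 3xTg-AD, with no overlap, but at 47.4, 31.5 and 32.6 and 48.5, 36.6 and 8.55 at 12 months. Kcnip3 stood at 448, 427 and 509 CPM against 359.8, 292 and 269.8 at 6 months, a log2 fold change of -0.56 ± 0.11 (SE) (edgeR adjusted p = 0.0138). Magi1, a scaffold protein gene named after its values were seen, stood at 822, 866 and 744 against 557, 581 and 543 CPM. Of the named 6-month genes, Azin1, Dgki, Fkbp5, Kcnq5, Mmp16, Prkg1, Prss41, Ptgfrn and Syt1 each lost the call in 2 or more of the 6 fits that left out 1 library, with edgeR adjusted p values up to 0.303 for Prkg1 without 3xTg-AD replicate 5, and Caskin1 lost it in 1. The number of called genes fell to 21 without 3xTg-AD replicate 5, 26 without replicate 9, 33 without replicate 1 and 28 without WT replicate 7, and DESeq2 called 22.

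Fkbp5, called at 6 months, and Zbtb16, called for age in 3xTg-AD below, are genes known to rise after glucocorticoid exposure. They belong to a longer list, mostly of such genes, that was added outside the planned lists. Its other members are not reported here and the list was not tested, so no reading is made of the pair. Fkbp5 stood at 60.1, 59.2 and 80.2 CPM in WT and 87.98, 117 and 139.6 in 3xTg-AD, a log2 fold change of 0.85 ± 0.17 (SE) (edgeR adjusted p = 0.0162). At 12 months the WT libraries stood at 56.6, 170.0 and 139 CPM, on both sides of the 3xTg-AD libraries at 67.9, 73.2 and 63.6. Zbtb16, named after its values were seen, also had 12-month WT libraries on both sides of the 3xTg-AD libraries, with 99.8, 486 and 364 CPM in WT and 249.6, 215 and 229 in 3xTg-AD, and its groups overlapped at 6 months at 132, 232 and 287 and 267, 395 and 463.

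**Figure D4:**
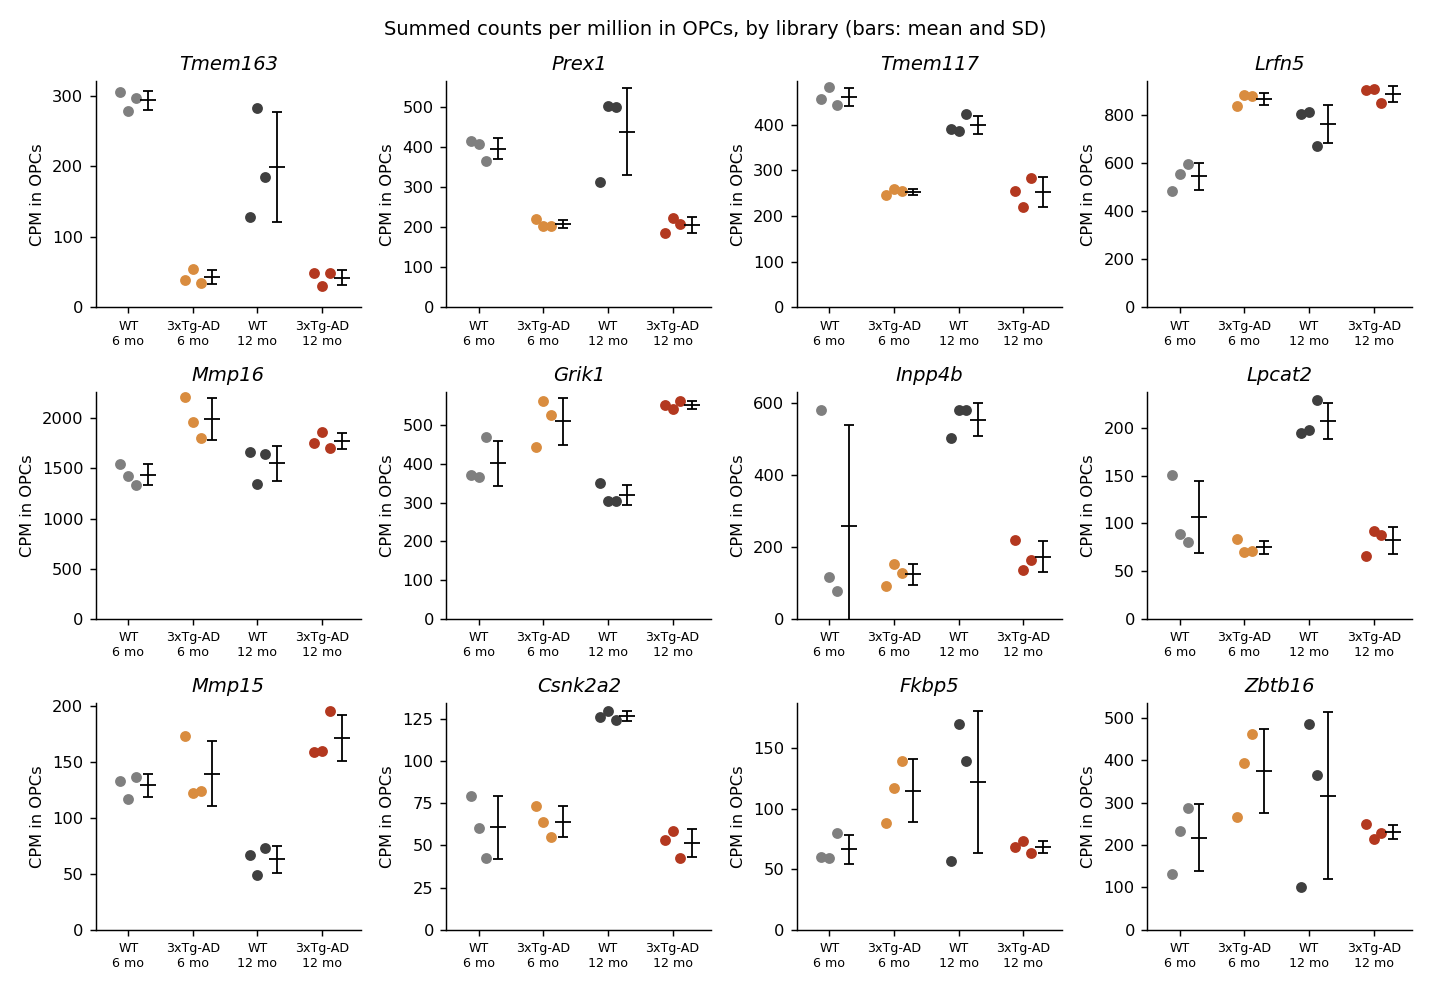
CPM in the summed OPCs of each library (points) with the mean and SD of 3 libraries (bars) for 12 genes, by group, on axes from 0. Tmem163, Prex1 and Tmem117 are lower in all 3xTg-AD libraries at both ages, and Inpp4b, Lpcat2 and Csnk2a2 are high in the 12-month WT libraries.

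At 12 months the called genes were mostly others, but a call at 1 age alone is no test of a difference between the ages. Of the 45 genes called at 12 months, 33 were also called in the fit over both ages, which holds the same libraries, in the same direction. None of Grik1, Sncaip, Hspa5, Alpk1 and Rarb was among the 7 genes called by the interaction below. Grik1 also had an unadjusted edgeR p under 0.05 at 6 months. Grik1, the gene of the kainate receptor subunit GluK1, stood at 350.5, 305 and 304 CPM in WT and 551, 542 and 564 in 3xTg-AD, a log2 fold change of 0.79 ± 0.13 (SE) (edgeR adjusted p = 0.00533, and 0.0569 without 3xTg-AD replicate 6). Sncaip, which encodes a binding partner of alpha-synuclein, stood at 82.8, 98.2 and 83.2 and 159.6, 153 and 151 CPM (edgeR adjusted p = 0.00292). Hspa5, the gene of the endoplasmic reticulum chaperone BiP, stood at 33.99, 34.01 and 31.2 and 85.5, 73.2 and 55.6 CPM, but the 6-month groups overlapped. Alpk1, the gene of a kinase that senses a bacterial sugar, stood at 24.8, 27.7 and 40.2 CPM in WT and 2.65, 0.763 and 2.14 in 3xTg-AD (edgeR adjusted p = 2.04e-05). Rarb, a retinoic acid receptor gene and 1 of 12 markers listed for striatal medium spiny neurons, stood at 37.5, 80.6 and 44.3 and 128, 109 and 95.2 CPM, while the 12 markers summed to 603 to 902 CPM in WT and 739 to 997 in 3xTg-AD. All 12 were detected and their part in the result was not tested. Without 3xTg-AD replicate 6 the calls of Hspa5, Rarb, Samd9l, Zfp868 and 4930570B17Rik were also lost, at edgeR adjusted p values of 0.0557 to 0.0843. Hspa5 was also lost without 3xTg-AD replicate 2 (edgeR adjusted p = 0.0655), and Rarb without that replicate (0.0748) and without WT replicate 4 (0.0510). The number of called genes fell to 28 without 3xTg-AD replicate 6 and rose to 71 without WT replicate 4.

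Called genes at 12 months lay close together in places. On chromosome 8 (GRCm38), from the start of Inpp4b at 81342556 to the end of Csnk2a2 at 95490039, 7 of 108 tested genes were called at 12 months and 0 of 100 at 6 months, beside 0.426% of all tested genes at 12 months. The stretch was picked after the calls were seen, so it is a description. Inpp4b, a phosphoinositide phosphatase gene, stood at 502, 579 and 581 CPM in 12-month WT and 219, 134 and 162 in 12-month 3xTg-AD (edgeR adjusted p = 8.65e-06). At 6 months it stood at 582, 116 and 77.5 in WT and 91.9, 151 and 126 in 3xTg-AD, so that WT replicate 3 alone lay at the 12-month WT level. Lpcat2, a phospholipid acyltransferase gene, was also high in 12-month WT, with 195, 198 and 229 CPM in 12-month WT, 150.3, 89.2 and 80.2 in 6-month WT and 66.1 to 92.3 over the 6 3xTg-AD libraries. Il15, the interleukin 15 gene, stood at 13.5, 20.2 and 21.5 CPM in 12-month WT and 15.9 in 6-month WT replicate 3, against 0 to 1.78 in the other 8 libraries. Csnk2a2, a casein kinase subunit gene, stood at 126, 129.7 and 124 CPM in 12-month WT and at 42.2 to 79.3 in the other 9 libraries. Mmp15, a membrane-bound metalloproteinase gene, ran the other way, at 66.6, 49.1 and 72.8 CPM in 12-month WT and 117 to 195 in the other 9 libraries.

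A pair of shorter stretches was also picked after the calls were seen, with called genes at their ends, so their counts are a description beside that 0.426%. On chromosome 17, from 14964242 to 15090044, 3 of 4 tested genes were called at 12 months, namely Gm3417, 9030025P20Rik and Ermard, and 0 of 3 at 6 months. Gm3417 stood at 20.5, 52.9 and 23.6 CPM in 12-month WT and at 0 to 2.703 in the other 9 libraries. On chromosome 6, from 3333194 to 4086972, 3 of 5 were called at 12 months, with Gm20559 and Samd9l higher and Bet1 lower in 3xTg-AD, and 1 of 5, Bet1, at 6 months. Gm20559 stood at 4.25, 6.298 and 4.16 CPM in WT and 27.3, 24.4 and 22.5 in 3xTg-AD. In each of these stretches the position of a gene was taken from the annotation, and why the calls lay together was not tested.

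Age was compared within each genotype. In WT, 3 of 10063 genes were called between 12 and 6 months, or 0.0298%, with Gm3417 and Dach2 higher and Mmp15 lower at 12 months. Dach2, a transcription factor gene, stood at 31.7, 31.1 and 41.4 CPM at 6 months and 74.3, 73.1 and 77.6 at 12 months (edgeR adjusted p = 0.0377), and its call held in 1 of the 6 fits that left out a library, that without 12-month replicate 12. The call of Mmp15 was lost without 6-month WT replicate 3, 7 or 11 and without 12-month WT replicate 8, at edgeR adjusted p of 0.101, 0.101, 0.231 and 0.113. The number of called genes was 5 without 6-month WT replicate 3, 1 without replicate 11 and 9 without 12-month WT replicate 12. In 3xTg-AD, 11 of 10364 genes were called, or 0.106%. AC149090.1, on an unplaced scaffold, stood at 109.7, 95.3 and 76.1 CPM at 6 months and 280.4, 262 and 465 at 12 months, and was the 1 gene of the 11 called in each of the 13 alternatives. Grm3 and Nkain2, genes that mature oligodendrocytes hold at means of 1657 and 13196 CPM, were higher at 12 months, at 246, 286 and 263 CPM of Nkain2 at 6 months and 479.7, 366 and 383 at 12 months. The summed level of 13 mature oligodendrocyte markers was 241 to 253 CPM in the 6-month and 178 to 564 in the 12-month 3xTg-AD libraries. Of the 13, 12 were detected, none of the 9 tested over all libraries was called, and Mog was at 0 by the rule. Over the 3525 OPCs with fewer than 2 UMIs of the other glial and vascular markers, the log2 fold change of Nkain2 was 0.57 against 0.62 over all OPCs, and its edgeR adjusted p was 0.182. The part of the UMIs that stayed was not tested. Fkbp5, Zbtb16, Ptgfrn, Kcnt2 and Mgat5b were lower at 12 months. Without 3xTg-AD replicate 9 the count was 2, without replicate 2 it was 5, without replicate 5 it was 6 and without replicate 10 it was 21.

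Over both genotypes, edgeR called 0 of 10925 genes between the ages, or 0%, with 623 at an unadjusted p under 0.05, and DESeq2 called 0. Without 12-month WT replicate 12 the count was 3, without 6-month WT replicate 3 it was 2 and without 6-month 3xTg-AD replicate 1 it was 1. The difference between the genotype effects at the 2 ages was tested as an interaction, in which 7 of 10925 genes were called, or 0.0641%. They were AC149090.1, Mmp15 and Ptprn, with a more positive effect at 12 months, and Ptgfrn, Prss41, Azin1 and Csnk2a2, with a more negative one. Ptprn, a gene of dense-core vesicles, stood at 144, 183 and 184 CPM in 6-month WT, 118, 135 and 117 in 3xTg-AD of that age, 103, 98.2 and 92.9 in 12-month WT and 155, 156 and 129.9 in 12-month 3xTg-AD. None of the 7 kept its call in every alternative, and the interaction count was 0 without WT replicate 7 or 3xTg-AD replicate 9 of the 6-month libraries and without 12-month 3xTg-AD replicate 10. It was 1 without 12-month 3xTg-AD replicate 6, 2 without 6-month 3xTg-AD replicate 1 or WT replicate 11, 3 without 12-month WT replicate 12 and 4 without 12-month 3xTg-AD replicate 2. The comparisons within an age and within a genotype share libraries, so their values are not independent of each other.

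Whether the genotype effect in OPCs differed from that in other glia was tested with the library as a block. Against mature oligodendrocytes, 24 of 12839 genes were called at 6 months, or 0.187%, and 37 of 12924 at 12 months, or 0.286%. None of the 24 and 5 of the 37 were called in OPCs themselves, and the others had their larger difference mostly in mature oligodendrocytes. Zfp804b, a zinc finger gene, averaged 3219 CPM in 6-month WT and 87.2 in 6-month 3xTg-AD mature oligodendrocytes, against 61.3 and 77.99 in OPCs. Scrg1 averaged 9.73 and 62.1 CPM in mature oligodendrocytes but 129 and 146 in OPCs. Grik1 moved in opposite directions, averaging 818 CPM in 12-month WT and 443 in 12-month 3xTg-AD mature oligodendrocytes, against 319.6 and 552 in OPCs. The difference between the 2 log2 effects was 1.72 ± 0.15 (SE) (edgeR adjusted p = 2.32e-04) and was called in each of its 8 alternatives. Inpp4b averaged 138 and 143 CPM in mature oligodendrocytes at 12 months, and its effect differed from that in OPCs (edgeR adjusted p = 0.0129, but 0.0926 without 3xTg-AD replicate 6 and 0.104 without replicate 10). The differences of Alpk1, Mmp15 and Csnk2a2 from mature oligodendrocytes were called at 12 months too. That of Alpk1 was lost in 5 of the 6 fits that left out 1 library, all but that without WT replicate 4 (edgeR adjusted p up to 0.263), that of Mmp15 without WT replicate 8 or 3xTg-AD replicate 6 or 10 (up to 0.285), and that of Csnk2a2 without 3xTg-AD replicate 10 (0.111). The leave-one-out counts ran from 7 to 27 at 6 months and from 8 to 59 at 12 months, with 7 without 3xTg-AD replicate 5, 9 without WT replicate 7, 13 without 3xTg-AD replicate 9 and 15 without WT replicate 3 at 6 months, and 8 without 3xTg-AD replicate 10, 14 without replicate 2, 15 without replicate 6, 24 without WT replicate 8 and 59 without WT replicate 12 at 12 months.

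**Figure D5:**
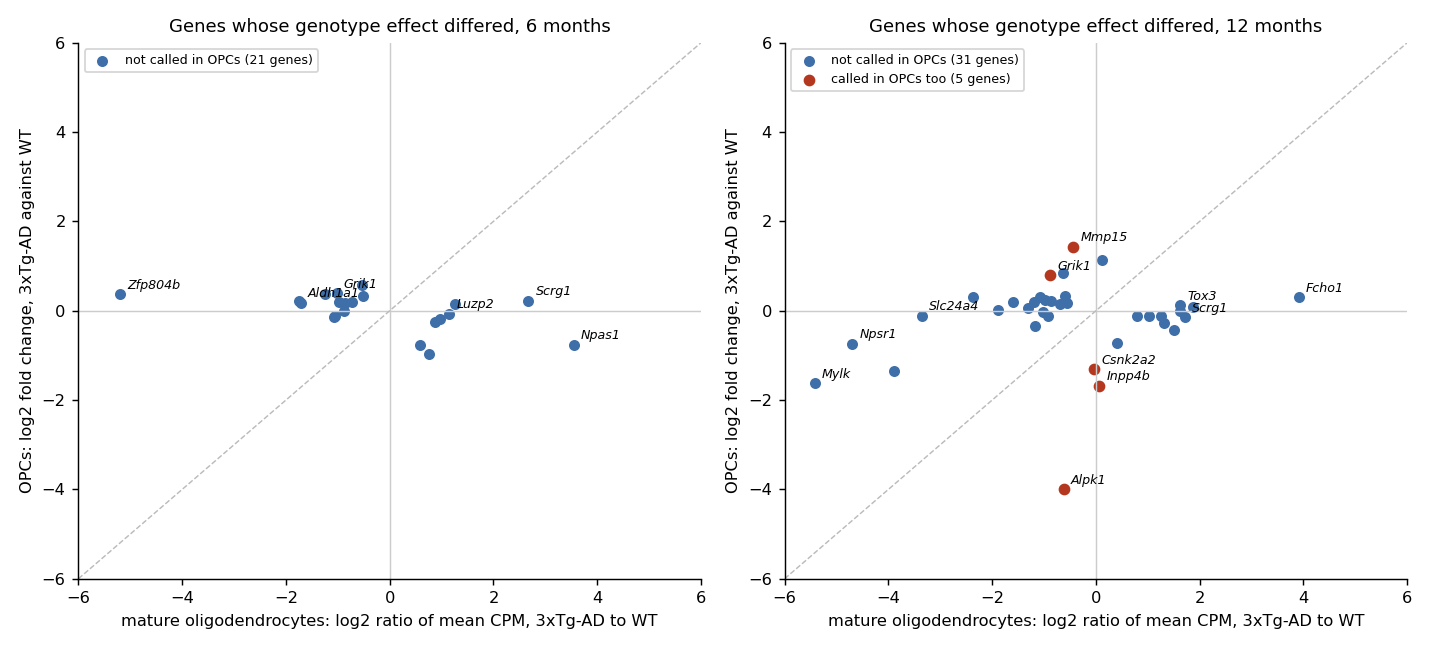
Genes whose genotype effect was called as different between OPCs and mature oligodendrocytes at 6 months (left, 21 of 24 genes, those tested in OPCs) and 12 months (right, 36 of 37), with the log2 ratio of mean CPM in mature oligodendrocytes on the x axis and the log2 fold change in OPCs on the y axis. Most points lie along the horizontal line, with Grik1 in the upper left and Inpp4b, Csnk2a2, Alpk1 and Mmp15, also called in OPCs (red), near the vertical line.

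Against astrocytes, 11 of 11640 genes were called at 6 months, or 0.0945%, and 2 of 11932 at 12 months, or 0.0168%. Tmem163 was among the 6-month genes, with a difference of -2.34 ± 0.29 (SE) on the log2 scale (edgeR adjusted p = 4.17e-04), and Alpk1 among the 12-month genes, where astrocytes averaged 116 CPM in WT and 109 in 3xTg-AD (edgeR adjusted p = 3.16e-04). Ltbp1 differed too, but not without WT replicate 11 or any 1 of the 3 3xTg-AD libraries, where its edgeR adjusted p was 0.0946 to 0.151. Ttr and Htr2c, genes of the choroid plexus, were also called. In OPCs Ttr stood at 0, 145 and 54.1 CPM in 6-month WT and 2.97, 3.05 and 76.1 in 6-month 3xTg-AD, and 8 ependymal and choroid plexus markers summed to 8.35 to 286 and 8.39 to 84.4 CPM, with overlapping genotypes. All 8 were detected, and their part in the result was not tested. The 6-month count was 36 without WT replicate 3, and 3, 4 and 3 without 3xTg-AD replicates 1, 5 and 9. At 12 months it was 1 without 3xTg-AD replicate 2 or 6, 3 and 5 without WT replicates 4 and 8, and 4 without WT replicate 12 or 3xTg-AD replicate 10.

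Few members of the gene lists of OPC biology were called, beside 0.511% of all tested genes at 6 months and 0.426% at 12 months, a share at which most lists of this size would hold no call. Of 19 tested genes for growth factor receptors and PDGF signalling, none was called at either age, with a median log2 fold change of -0.00075 at 6 months and -0.051 at 12 months, against 0.0034 and -0.0034 over all tested genes. Erbb4, the neuregulin receptor gene, stood at 2922 to 3912 CPM over the 12 libraries and Ntrk2 at 518 to 604. None of the 24 tested lineage transcription factors was called at 6 months or of the 26 at 12 months, and Zeb1, Tcf4 and Sox5 stood at 1567 to 2028, 1331 to 1923 and 1412 to 1662 CPM. None of 27 matrix and proteoglycan genes was called at either age. Among 27 glutamate receptor genes, Grik1 rose at 12 months, and the medians at 6 and 12 months were 0.071 and 0.10, while the AMPA receptor gene Gria2 stood at 1202 to 1433 CPM. None of 12 GABA receptor genes was called, with a median of 0.17 at 6 months. Of 33 channel genes, Kcnq5 rose and Kcnip3 fell at 6 months and none was called at 12 months. None of 40 adhesion genes was called at either age, although 8 were higher and 1 lower at an unadjusted p under 0.05 at 6 months, where 7.57% of all tested genes had such a p, 377 of 755 of them higher, with a median of 0.12.

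For signalling, ageing and disease lists the same shares of all genes apply. None of the tested genes of the Notch list (15 and 16 at 6 and 12 months), the Wnt list (20 and 20) or the quiescence and senescence list (15 and 14) was called. Ltbp1 was the 1 called gene of 19 in the BMP and TGF-beta list at 6 months, and none of 19 was called at 12 months. None of 13 and 15 proliferation genes, 9 and 13 antigen presentation, interferon and complement genes, or 24 and 26 cholesterol and lipid synthesis genes was called. At 12 months the median log2 fold change was 0.50 for the proliferation genes, with 3 of 15 higher and 0 lower at an unadjusted p under 0.05, which 6.61% of all tested genes had, after -0.23 at 6 months. The 3 were Anln, which mature oligodendrocytes also hold, Rad51b and Atad2, none of them among the 20 cell cycle genes. The 9 tested mature oligodendrocyte markers also had a median of 0.50 at 12 months, and their part in the shift was not tested. For the lipid genes the median was -0.27 at 12 months, with 4 of 26 lower and 1 higher at such a p, after 0.12 at 6 months. Of the 12-month 3xTg-AD nuclei with 3 or more cell cycle UMIs, 13 came from replicate 10, or 5 at 2000 UMIs per nucleus. Of the ligands and guidance cues none of 33 and 34 was called at an age, and Sema3a was called in the fit over both ages. None of 29 and 31 Alzheimer's disease genes was called. The mouse counterparts of the transgenes stood at 257 to 335 CPM for App and 293 to 358 for Mapt, with overlapping genotypes, and Thy1 at 7.63 to 27.7. A 3′ read of the human sequences need not align to the mouse gene, so these levels do not check the genotype. No OPC identity marker of the 14 tested was called at either age, and none of 8 tested astrocyte, 3 microglia, 1 vascular or 5 dentate granule neuron markers was. None of 5 tested markers of committed precursors was called. Tac1, a neuropeptide gene of the striatal neuron list, was the 1 gene of 6 called there at 6 months, at 15.03, 15.6 and 16.2 CPM in WT and 2.97, 1.53 and 7.13 in 3xTg-AD. No inhibitory neuron marker was high enough to be tested between genotypes, none of 8 and 9 mitochondrially encoded genes was called, and none of 5 immediate early and heat shock genes was.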

How the data were processed

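Nuclei from the left hippocampus were sequenced by the authors in 12 single-nucleus libraries and aligned to mm10 with Cell Ranger 6.1.1. The deposited matrices hold whole-number UMI counts per gene and nucleus under a Cell Ranger header, and were taken, from that header and the whole numbers alone, as made before the study corrected for ambient RNA; free RNA may be included. Nuclei were chosen by the rule in the report, and the members and gene lists were chosen with earlier results of these data known. Counts were summed per library and cell class and tested with edgeR 4.0.16 (R 4.3.3) by glmQLFit and glmQLFTest after TMM scaling and filterByExpr. DESeq2 1.42.0, which follows the study's choice of test, was an alternative. A library total of 793934 to 1870399 OPC UMIs limits precision for low genes, and 3 UMIs in a library corresponded to 1.60 to 3.78 CPM, a floor for counting error only. Shares were compared by 2-sided exact permutation tests. Named genes were the called genes with the smallest p and no overlap between groups, up to 12 a direction, called list members, and up to 4 of a list's highest members. Scripts were tested on simulated data with 200 changed genes. Some genes that these rules name are not reported here.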

Additional observations from a re-analysis of the deposited data

Results flagged for a closer look

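By the interaction in edgeR, the genotype effect in OPCs was called as different between 12 and 6 months for 7 genes. None of the 7 kept its call in every alternative. DESeq2 called 2 genes, and leaving out 1 library gave 0 to 9. The log2 effect at 12 months minus that at 6 months was 2.55 for AC149090.1, 1.30 for Mmp15, 1.02 for Ptprn, -1.18 for Ptgfrn, -4.62 for Prss41, -1.29 for Azin1 and -1.39 for Csnk2a2, with edgeR adjusted p values of 0.0171 to 0.0486.

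The 12-month genotype effect in OPCs minus that in mature oligodendrocytes was 1.72 for Grik1, -1.80 for Inpp4b, -1.28 for Csnk2a2, -3.25 for Alpk1 and 2.03 for Mmp15 on the log2 scale. Leaving out 1 library ended the call in 5 of 6 fits for Alpk1, 3 for Mmp15, 2 for Inpp4b, 1 for Csnk2a2 and 0 for Grik1, with edgeR adjusted p values up to 0.263 for Alpk1 and 0.285 for Mmp15. The effect in OPCs minus that in astrocytes was -2.34 for Tmem163 and -1.77 for Ltbp1 at 6 months and -3.82 for Alpk1 at 12 months. Ltbp1 lost that call without WT replicate 11 or 3xTg-AD replicate 1, 5 or 9, at edgeR adjusted p values of 0.0946 to 0.151. All genes of this paragraph were called in OPCs themselves and by the test of the difference.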

How the results depend on the processing

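Of 101 results for named genes, 55 kept their call in every alternative run for them. Of 1422 alternative values 1165 kept the call, 257 lost it and 0 changed sign. Without the filter on low counts, the called genes numbered 171 at 6 months, 183 at 12 months, 107 for age in WT, 40 for age in 3xTg-AD, 60 for the interaction, 282 for genotype and 65 for age over all libraries, and 94, 76, 137 and 70 for OPCs against mature oligodendrocytes and astrocytes at 6 months and then at 12. DESeq2 called 22 genes at 6 months, 1 for age in WT, 3 for age in 3xTg-AD and 2 for the interaction. Thinned to the smallest library, the counts were 28 at 6 months, 6 for age in WT and 64 for genotype. The stricter rule gave 24 at 6 months, 8 and 3 for age in WT and 3xTg-AD, and 1 for the interaction. A fit of all 12 libraries gave 22, 10 and 1 for 6 months and age in WT and 3xTg-AD, and RLE size factors gave 3 for the interaction. The cause was not tested.

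Leaving out 1 library gave 21 to 65 genes at 6 months, 28 to 71 at 12 months, 1 to 9 for age in WT, 2 to 21 for age in 3xTg-AD, 0 to 9 for the interaction, 61 to 128 for genotype and 0 to 3 for age. It gave 7 to 27 and 8 to 59 against mature oligodendrocytes and 3 to 36 and 1 to 5 against astrocytes.

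No share difference was called, and several changed sign. Without 1 library the OPC share differed by 0.0665 to 0.327 percentage points for age and 0.0094 to 0.270 for genotype. Its difference at 12 months became 0.0042 percentage points with the looser rule and -0.36 to 0.30 without 1 library. OPCs per 100 mature oligodendrocytes at 6 months became 0.30 thinned, 1.47 with the stricter rule and -2.001 to 2.208 without 1 library. Without 1 library the difference in that ratio was -3.76 for age without 12-month 3xTg-AD replicate 2 to -0.93 without 12-month WT replicate 8, -0.14 to 2.64 for genotype over both ages and -0.10 to 5.59 at 12 months. With raw UMIs the proliferation share differed by -0.345 for age, -1.67 for genotype, -0.78 at 6 months and -2.55 at 12 months; with at least 5 UMIs it was -0.039 for age, and without 1 library -0.42 to 1.66 at 6 months. With at least 2 UMIs the Gpr17 share differed by -0.62 for age, 0.62 for genotype, 0.37 at 6 months and 0.87 at 12 months. With 1 UMI and without 1 library it differed by -0.12 to 2.23 for age, -2.72 to -0.40 for genotype, -4.14 to 0.80 at 6 months and -3.98 to 1.34 at 12 months.

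The planned removal of nuclei with UMIs over all astrocyte, microglia and vascular markers left 11 OPCs and was not run. No analysis that paired libraries across the 4 groups was run, because no label pairs them and their replicate numbers are all different.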
